A study of Mus musculus with 384 samples.

Results

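Ribosomal protein pseudogenes were followed in the livers of 192 outbred mice. The members were the rows of the deposited expression table whose Ensembl gene ID carries, in the GENCODE mouse annotation M21, a symbol that starts with Rpl or Rps and ends in -ps, with or without a number. The annotation held 300 such symbols, and 162 of them were rows of the table, out of 21454 rows in all. Of these 162, 96 were named after proteins of the large ribosomal subunit (Rpl) and 66 after proteins of the small subunit (Rps). They carry the names of 48 coding genes, each of which was also a row of the table. GENCODE lists 152 as processed pseudogenes, 6 as transcribed processed pseudogenes and 4 (Rpl10-ps3, Rpl36a-ps1, Rpl9-ps6 and Rps12-ps3) as protein coding. They were spread over the genome, with 22 on the X chromosome, 49 inside an intron of a protein-coding gene and 113 outside any protein-coding gene.

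A processed pseudogene arises when a messenger RNA is copied into DNA and inserted at a new place in the genome, without introns and usually without a promoter. Ribosomal protein messengers are abundant and short, and mammalian genomes hold many such copies of them. A recent copy can match the coding messenger almost base for base, so a short read from one may align equally well to the other, and copies can be present in some inbred strains and absent from others.

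The mice were wild-type Diversity Outbred animals, a stock bred from several inbred founder strains, and were 26 weeks old. From weaning on, their food was chow holding 6% fat or a high fat diet holding 22%. Chow was fed to 50 females and 48 males. The high fat diet was fed to 48 females and 46 males. Of all mice, 97 were labelled generation G11L1 and 95 G11L2. Coats were agouti in 131 mice, black in 30 and white in 25, with other colours in 6. Each mouse had 2 sequencing runs that the table gives as 1 column, so the mouse was the replicate, and the letter F or M in each mouse's name matched its labelled sex in 192 of 192.

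The values were scaled by the authors to each mouse's upper quartile. Low values rose in the same step in genes of any length, so values are not scaled to length and levels are not compared between genes. By that step, 1 read was worth 0.0158 in the median mouse, and the estimated depth was 9.79 M to 17.9 M reads (median 14.2 M). Hepatocyte markers were present in every mouse, with Alb at a median of 17140 and Apoa1 at 1063. Acinar pancreas markers were at 0 in many mice (Ctrb1 in 91) and high in some (Ctrb1 up to 197.1), and their part in the results was not tested. For tests, 14602 genes were kept that were above 0 in at least 46 mice and whose mean reached 0.0629. Of the 162 pseudogenes, 36 passed that filter and 126 did not. Log2 values below are log2(value + 0.0629), a pseudocount of about 3.99 reads, and understate changes of low genes.

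The pseudogenes differed from the coding genes by few bases. Over its aligned length a member matched the closest transcript of the gene it is named after at a median of 98.1% of positions (range 52.1% to 100%), 132 of 162 matched at more than 95% and 11 at all positions. Sharing was also counted in words of 100 bases, which is the read length. A median of 32.2% of a member's words occurred in the transcripts of another gene, 128 members shared a word with the coding gene of their name, 25 shared none with any gene and 28 shared all. Of the 28 members described below as having 2 modes, 9 were identical to the coding transcript along their whole length.

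The sequences shown are those of members on which the results turn, each as a 100-base window within the coding sequence, taken from the GENCODE M21 transcripts (build GRCm38) and written 5′ to 3′ on the transcript strand. Capitals mark the bases at which pseudogene and coding gene differ, and each window is the one with most differences. Rps6-ps4 (chromosome 2, 75191073 to 75191822, minus strand) is shown once because it has no difference from Rps6. Rpl19-ps11 (chromosome 8, 19492936 to 19493526, plus strand) differs from Rpl19 in this window by G191A. Rpl39-ps (chromosome 15, 102635038 to 102635188, plus strand) differs from Rpl39 by T96C. Rps2-ps13 (chromosome X, 52898588 to 52899469, plus strand) differs from Rps2 by T60A and A84G. Rps25-ps1 (chromosome 6, 145266400 to 145266777, plus strand) differs from Rps25 by T6G and G55A. Rps15-ps2 (chromosome 6, 58017506 to 58017943, plus strand) is shown because it was the 2-mode member with the fewest shared words after Rpl39-ps, and it differs from Rps15 by A159G, G187A, A192G, A201G, T219C and G234A. Rpl36a-ps3 (chromosome 6, 136488807 to 136489127, plus strand) is shown because its 16 differences from Rpl36a in the window set it apart from its name. In each change the coding base stands first and the position counts from the first base of the start codon.
Rps6-ps4: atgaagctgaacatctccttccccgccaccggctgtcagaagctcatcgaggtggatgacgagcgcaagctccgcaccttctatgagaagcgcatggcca
Rpl19-ps11: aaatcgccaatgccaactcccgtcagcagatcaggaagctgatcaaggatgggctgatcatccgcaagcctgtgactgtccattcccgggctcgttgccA
Rpl19: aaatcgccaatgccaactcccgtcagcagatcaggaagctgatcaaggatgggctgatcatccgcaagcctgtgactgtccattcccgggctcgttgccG
Rpl39-ps: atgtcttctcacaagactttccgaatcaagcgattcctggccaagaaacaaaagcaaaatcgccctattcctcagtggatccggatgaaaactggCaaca
Rpl39: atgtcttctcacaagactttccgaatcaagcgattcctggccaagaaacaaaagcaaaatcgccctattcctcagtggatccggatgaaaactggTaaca
Rps2-ps13: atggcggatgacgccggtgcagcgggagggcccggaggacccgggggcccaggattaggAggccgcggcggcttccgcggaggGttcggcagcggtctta
Rps2: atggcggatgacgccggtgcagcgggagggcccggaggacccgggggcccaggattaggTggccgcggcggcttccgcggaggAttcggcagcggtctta
Rps25-ps1: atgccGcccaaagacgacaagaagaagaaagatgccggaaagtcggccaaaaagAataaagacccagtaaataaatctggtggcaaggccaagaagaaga
Rps25: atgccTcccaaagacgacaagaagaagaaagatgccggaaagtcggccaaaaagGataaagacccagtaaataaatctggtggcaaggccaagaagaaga
Rps15-ps2: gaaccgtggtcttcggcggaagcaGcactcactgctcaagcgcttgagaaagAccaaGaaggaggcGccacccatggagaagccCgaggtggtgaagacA
Rps15: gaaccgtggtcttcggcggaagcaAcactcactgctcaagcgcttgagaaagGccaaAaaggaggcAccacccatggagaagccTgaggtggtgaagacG
Rpl36a-ps3: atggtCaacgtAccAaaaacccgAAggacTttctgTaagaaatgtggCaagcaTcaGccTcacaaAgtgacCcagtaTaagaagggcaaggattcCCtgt
Rpl36a: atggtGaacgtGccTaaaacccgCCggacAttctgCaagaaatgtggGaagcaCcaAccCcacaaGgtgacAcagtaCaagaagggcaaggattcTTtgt

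Reads per mouse were not whole numbers for most of these genes. Among values worth 1 to 100 reads, 28.3% of the pseudogenes' values lay within 0.1 of a whole read, against 79.7% over all genes of the table. The share was 36.1% for 84 coding ribosomal protein genes and 47.2% for 1393 other processed pseudogenes. The coding figure rests on 682 values, against 9618 for the pseudogenes. For values up to 30 reads it was 57.1%, and that of the pseudogenes was 29.05%. By sequence, the share was 81.6% for the 25 members that shared no 100-base word, 25.4% for 74 members that shared up to 50% of their words and 19.8% for 63 that shared more. Rps15-ps2, a copy of the small-subunit gene Rps15 that shared 5.02% of its words, had 98.2% of its values at whole reads. Rps19-ps3 shared 7.95% of its words and had 20.3%. Rpl39-ps shared none and had 16.2%, well below the figure for the group of 25 it belongs to. A tolerance of 0.1 to both sides covers 20% of all fractions. How reads that fit several places were counted is not given in the sources used here, and its part in these fractions was not tested.

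Several members of identical sequence carried identical values. The transcripts of Rps12-ps11, Rps12-ps12, Rps12-ps13, Rps12-ps14 and Rps12-ps15, all on the X chromosome, were the same in sequence, and their 5 columns of values did not differ in any mouse, with 181 mice at 0 in each. The same held for Rps12-ps6, Rps12-ps17 and Rps12-ps18 (183 mice at 0) and for Rps19-ps1 and Rps19-ps2 on chromosome 14 (124 mice at 0). The 4 identical copies of Rpl35a (Rpl35a-ps2, Rpl35a-ps3, Rpl35a-ps4 and Rpl35a-ps6) differed in 32 mice by at most 0.075 and were all at 0 in the other 160.

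Most pseudogenes were at 0 in most mice. Over the 162 members the median share of mice at exactly 0 was 64.6% (124 of 192 mice), and 107 members were at 0 in at least 96 mice. No member was at 0 in every mouse, and 9 were above 0 in all of them. By comparison 57.8% of all genes of the table, and 80 of 84 coding ribosomal protein genes, had no mouse at 0, while other processed pseudogenes were like the members, at 66.1% of mice. Values were low as well: 106 members never passed 10 reads in any mouse. A mouse had between 44 and 87 of the 162 members above 0 (median 66), and the members took 0.0227% to 0.158% of its summed signal (median 0.0758%). The coding ribosomal protein genes took 0.761% to 1.54% (median 1.03%).

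The number of members above 0 rose with depth. Across 192 mice Pearson's r with the estimated read number was 0.604 and Spearman's rho 0.566 (both permutation p = 1e-05, the smallest that 100000 permutations can give; both adjusted p = 2e-05 over 2 relations). It was 0.571 without the 2 mice farthest from the median depth, and 0.663 and 0.54 within G11L1 and G11L2. The number of members in their high mode was not shown to move with depth (r = 0.101, permutation p = 0.161, adjusted p = 0.161; rho = 0.0796, permutation p = 0.271, adjusted p = 0.271).

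**Figure D1:**
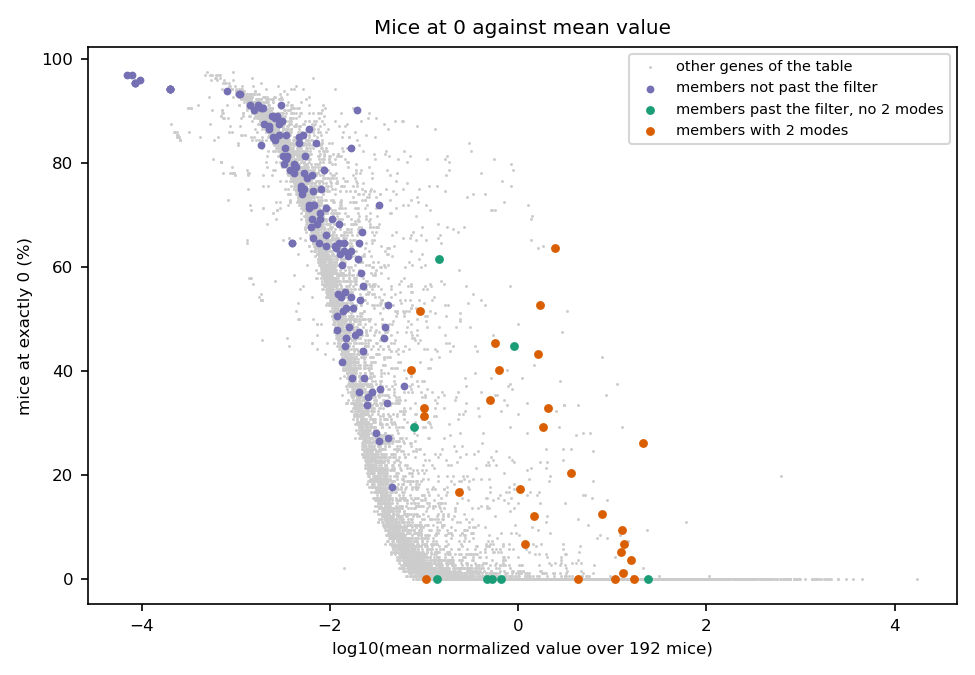
Share of mice at exactly 0 (vertical axis, percent of 192) against the mean value (horizontal axis, log10) for each gene of the table, with the 162 pseudogenes in colour. The 126 members that did not pass the filter lie near the band of the other low genes, whereas those of the 28 members with 2 modes that have mice at 0 lie to the right of that band, with as many as 122 mice at 0.

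The share of mice at 0 was set against sex, diet and generation label with a two-sided Fisher exact test for every gene that had 10 to 182 mice at 0, 145 members among 7644 genes. With Benjamini-Hochberg adjustment no member passed for sex (13 at an unadjusted p under 0.05), while 9.46% of the 7644 genes did. None passed for diet (6 at an unadjusted p under 0.05), against 2.28% of the genes. For the generation label no member passed (10 at an unadjusted p under 0.05) and 0% of the genes did. For sex, an unadjusted exact p under 0.05 was found in 8.97% of the 145 members and 20.6% of the 7644 genes. These shares were 4.14% and 12.7% for diet, and 6.90% and 5.34% for the generation label. The member nearest to a call was Rpl27a-ps1, a copy of a large-subunit gene, at 0 in 58.5% of males and 37.8% of females (exact p = 0.0059, adjusted p = 0.0586).

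In most of the members that passed the filter, mice fell into a low and a high set. A gene was said to have 2 modes when a mixture of 2 normal distributions with a common SD fitted its log2 values better than 1 distribution (a difference in the Bayesian information criterion above 10), the means lay more than 3 SDs apart, and the smaller set held at least 5% of mice. This held for 28 of 36 members. It held for 8.08% of the 14602 genes tested, for 27 of 82 coding ribosomal protein genes and for 128 of 262 other processed pseudogenes. The 126 members that did not pass the filter were not assessed. The filter on the mean favours low genes with a high set, since such a gene can pass through that set. Rpl34-ps1 and Rpl17-ps8, for example, had a median of 0 in their low sets. The share of 28 of 36 is therefore partly set by the filter. On the log2(value + 0.0629) scale the means of the low and high sets were 2.70-fold to 300.4-fold apart (median 35.2-fold), and the high set held 9.90% to 85.4% of mice (median 37.0%). Just outside the rule were Rpl36-ps12 and Rpl7a-ps11, with 6 mice each in the smaller set, and Rpl23a-ps3, with 3. Just inside it were Rps25-ps1 and Rpsa-ps10, at 3.09 and 3.13 SDs. Under 1 or more other settings 10 of the 28 lost their 2 modes, namely Rpl3-ps1, Rpl10-ps3, Rpl10-ps6, Rpl17-ps5, Rpl27-ps3, Rps2-ps10, Rps6-ps4, Rps13-ps1, Rps25-ps1 and Rpsa-ps10.

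**Figure D2:**
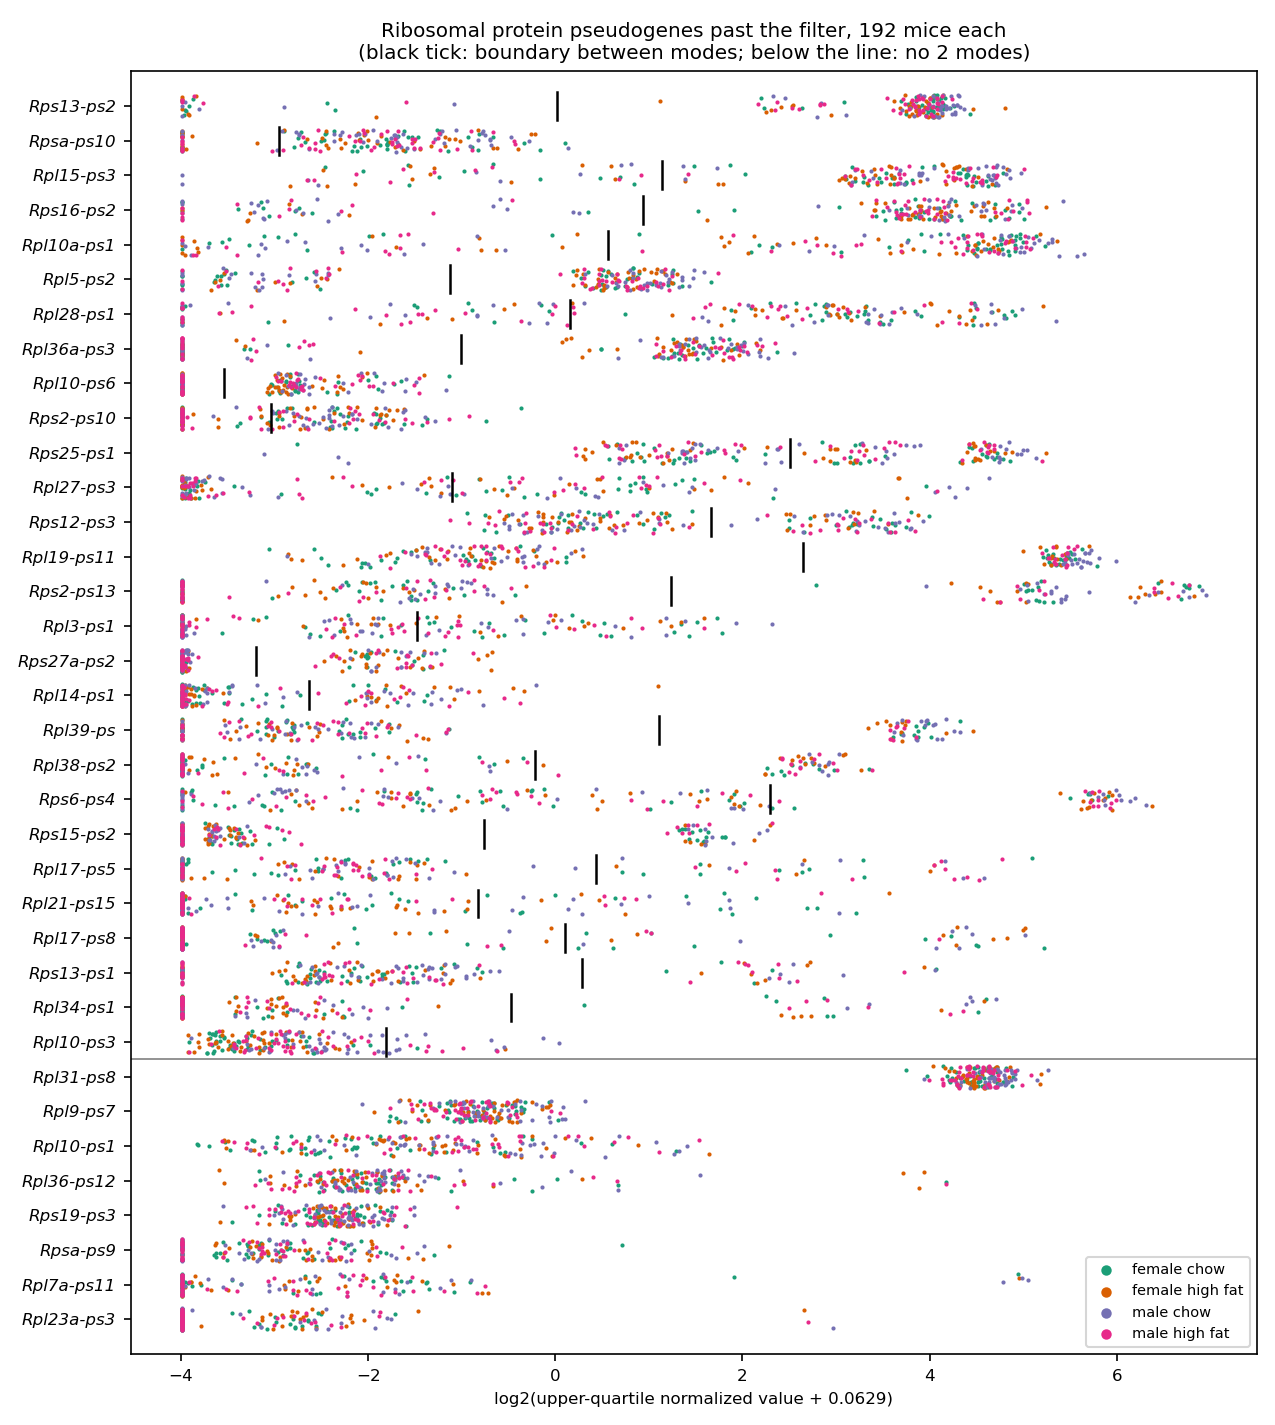
Log2 values (horizontal axis) of the 36 pseudogenes that passed the filter, 1 point per mouse and coloured by sex and diet, ordered by the share of mice in the high set. The black tick marks the boundary of each of 28 members with 2 modes, and the 4 groups are mixed on both sides of it in most rows, whereas Rpl10-ps3 has 17 males among its 19 high mice.

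Among the large-subunit copies, Rpl19-ps11 had the clearest split of those with no mouse at 0. Its 119 low mice had values up to 1.17 (median 0.469) and its 73 high mice had 31.97 to 63.4 (median 43.6), so no mouse lay between. Rpl39-ps, a copy of a short large-subunit gene, had 144 low mice up to 0.394 and 48 high mice from 10.1 to 22.1 (median 13.9), with a similar empty interval. In Rpl10a-ps1 (chromosome 1, 64993951 to 64994604) 137 mice were high, with a median of 23.3, and 55 were low, with a median of 0.074 and a highest value of 1.11. Rpl15-ps3 (chromosome 9, 22185607 to 22186221) was high in 150 mice (median 15.1) and low in 42 (median 0.344). Rpl28-ps1 was high in 124 mice, and its sets met at the boundary, with the low set ending at 1.03 and the high set starting at 1.07.

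Other large-subunit copies were high in few mice. Rpl34-ps1 was at 0 in 101 mice and high in 26 (median 8.19, highest 26.2). Rpl17-ps8, inside an intron of Heph on the X chromosome, was at 0 in 122 mice and high in 31 (median 17.6, highest 37.2), and Rpl17-ps5 was high in 36 (median 6.39). Rpl38-ps2 was high in 47 mice (median 6.31) and Rpl21-ps15 in 34 (median 1.61). At lower values, Rpl5-ps2 was high in 130 mice (median 1.67), Rpl36a-ps3 in 120 (median 2.77), Rpl27-ps3 in 74 (median 1.61) and Rpl3-ps1 in 69 (median 0.933). Rpl14-ps1 was high in 53 mice (median 0.253), Rpl10-ps6 in 115 (median 0.0855) and Rpl10-ps3 in 19 (median 0.328). The low set of Rpl10-ps6 was the 77 mice at 0, so its 2 modes repeat the split between 0 and above 0.

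Among the small-subunit copies, Rps2-ps13 had 123 low mice up to 0.741 and 69 high mice from 6.83 to 123.7 (median 39.8), the 300.4-fold gap given above. Rps6-ps4 was low in 149 mice (median 0.261) and high in 43 (median 55.7, highest 82.95). The low set of Rps6-ps4 ended at 4.80 and its high set started at 4.91, so they met at the boundary. Rps13-ps2 (chromosome 7, 88530446 to 88530898) was high in 164 mice (median 15.7), the largest high set, and low in 28 (median 0.00225). Rps16-ps2 was high in 141 mice (median 16.6) and low in 51 (median 0.0554). Rps13-ps1 was high in 28 mice (median 4.85), and Rps15-ps2 in 38 (median 2.90), with the rest of its mice at or below 0.0888. Rps25-ps1 (98 high mice, median 21.4) and Rps12-ps3 (73 high mice, median 9.16) had no mouse at 0, and their low sets kept medians of 2.23 and 1.06. Rps27a-ps2 was high in 69 mice (median 0.225), Rpsa-ps10 in 155 (median 0.242) and Rps2-ps10 in 112 (median 0.142). Sets also met in other members. Among them the low set ended and the high set started at 0.0645 and 0.069 in Rpsa-ps10 and at 0.0579 and 0.0597 in Rps2-ps10. The same values were 0.293 and 0.298 in Rpl3-ps1 and 0.397 and 0.405 in Rpl27-ps3.

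Of the 8 members without 2 modes, 3 missed the rule only by the size of the smaller set and 5 had no second set by it. Rpl31-ps8 (chromosome 15, 90764279 to 90764656) was on in every mouse, from 13.3 to 38.4 with a median of 23.8 and a mean of 23.7 ± 3.95 (SD, n = 192). Rpl9-ps7, Rpl10-ps1 and Rps19-ps3 were also above 0 in all mice, with medians of 0.502, 0.296 and 0.132. Rpl36-ps12 had 6 mice from 2.86 upward and Rpl7a-ps11 had 6 from 3.69 upward, Rpl23a-ps3 had 3 from 6.23 upward, and the other mice of these 3 members stayed at or below 1.53, 0.545 and 0.299. Rpsa-ps9 had a median of 0.05 and 56 mice at 0.

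No 2 mice had the same set of high members. Over the 28 members with 2 modes the 192 mice showed 192 different patterns. The possible patterns of 28 members far outnumber the mice, so such a count was to be foreseen. No other set of genes was compared with it. In a mouse 6 to 18 members were high (median 12). The median was 12 in each of the 4 groups of sex and diet. The share of mice in the high set had a median over the 28 members of 36.2% in females and 36.7% in males, and of 39.8% with chow and 34.0% with the high fat diet. The widest gaps between diets were those of Rps27a-ps2 (15.05 percentage points higher on the high fat diet) and Rpl21-ps15 (-13.85 points, lower on it), and between sexes those of Rpl28-ps1 (-16.07 points, lower in males) and Rpl10-ps3 (16.04 points higher in males).

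Sex, diet and generation label accounted for little of the pseudogenes' variation. A linear model with the 4 groups and the generation label gave a median R² of 2.00% over the 36 members, against 14.8% over all tested genes, 14.6% for coding ribosomal protein genes and 3.30% for other processed pseudogenes. With coat colour added, in the 186 agouti, black and white mice, the members' median was 3.32% and that of all genes 16.4%. Added terms raise R² whatever they are, and the mice differ, so the part of coat is not measured by this rise. The residual SD was 1.95 log2 units at the median member and 0.325 at the median gene. Of the 36 members, 28 were among the 731 genes with the largest residual SD, the top 5%. Here too the filter favours low genes with a high set. Rpl10-ps3 was the member with the largest R², 24.3%, and Rpl31-ps8 and Rpl10-ps1 followed at 11.9% and 10.5%.

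Few members passed limma's test for sex. It called 4 of 36 at a Benjamini-Hochberg adjusted p under 0.05, 3 higher and 1 lower in males, whereas it called 68.5% of all tested genes. In whole liver, fewer cells of a type and less RNA per cell cannot be told apart. Rpl10-ps3 ranged from 0.0027 to 0.629 in 98 females (median 0.0385) and from 0.0033 to 0.962 in 94 males (median 0.0946). The ranges overlap, and males were higher by 0.70 ± 0.098 (log2 change ± SE, limma adjusted p = 1.02e-10). Rpl10-ps1, a copy of the same gene, had medians of 0.215 in females and 0.414 in males, again with wide overlap, and was higher in males by 0.64 ± 0.17 (limma adjusted p = 0.000439). Rpl28-ps1 had medians of 7.38 in females and 3.00 in males, from 0 to 36.95 and 0 to 40.9, and its log2 change was -0.94 ± 0.42 (limma adjusted p = 0.0396). The call of Rpl28-ps1 was lost in 5 of 8 alternative settings, among them no filter (limma adjusted p = 0.0513), rank-based scores (0.0688) and each generation alone (0.0609 in G11L1 and 0.361 in G11L2). Rpl10-ps1 lost its call in G11L2 mice alone, where the change was 0.20 (limma adjusted p = 0.437). Rpl31-ps8 was higher in males by 0.088 ± 0.033 (limma adjusted p = 0.0122) and by 0.00033 (limma adjusted p = 0.994) after median-of-ratios rescaling, which shifted the median sex change of all genes by -0.08. Its sex call was also lost in G11L2 mice alone (limma adjusted p = 0.176).

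Fewer members passed for the high fat diet. limma called 2 of 36 members, against 56.9% of all tested genes. Rps27a-ps2, a copy of a gene for a ubiquitin-ribosomal fusion protein, had a median of 0 in 98 chow mice and 0.00225 in 94 high fat mice, with highest values of 0.376 and 0.565, and rose by 0.35 ± 0.16 (log2 change ± SE, limma adjusted p = 0.0451). The call did not hold in either generation alone (limma adjusted p = 0.321 in G11L1 and 0.128 in G11L2), without the filter (0.059) or with rank-based scores (0.0596). Rpl31-ps8 had medians of 24.6 with chow and 22.2 with high fat food and fell by 0.078 on the log2 scale (limma adjusted p = 0.032), a change of -0.00039 (limma adjusted p = 0.993) after the same rescaling. That call was also lost in each generation alone (limma adjusted p = 0.159 and 0.176). Of the 28 members with 2 modes, 27 did not pass for diet, and the median half-width of their 95% intervals was 0.67 log2 units. Rps6-ps4, at 0.91 (interval -0.047 to 1.88, limma adjusted p = 0.0993), and Rps2-ps13, at -0.93 (interval -2.10 to 0.23, limma adjusted p = 0.17), had the largest estimates.

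The diet change differed between the sexes in 1 of 36 members, Rpl31-ps8, by -0.20 ± 0.065 (high fat minus chow in males less the same in females, limma adjusted p = 0.0332). limma called 8.38% of all genes for this interaction. The diet change of Rpl31-ps8 was 0.023 in females and -0.18 in males, and median values were 23.0 (chow) and 22.2 (high fat) in females and 25.7 and 22.9 in males, with overlapping ranges in all 4 groups. The call was lost after median-of-ratios rescaling (-0.14, limma adjusted p = 0.191) and in G11L2 mice alone (-0.11, limma adjusted p = 0.677). Of 82 tested coding ribosomal protein genes, limma called 50 for sex, all higher in males, and after rescaling 16 higher and 2 lower. For diet it called 50, all lower on the high fat diet, and 30 after rescaling, all lower. For the interaction it called 30, all negative, and 6 after rescaling, all negative.

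**Figure D3:**
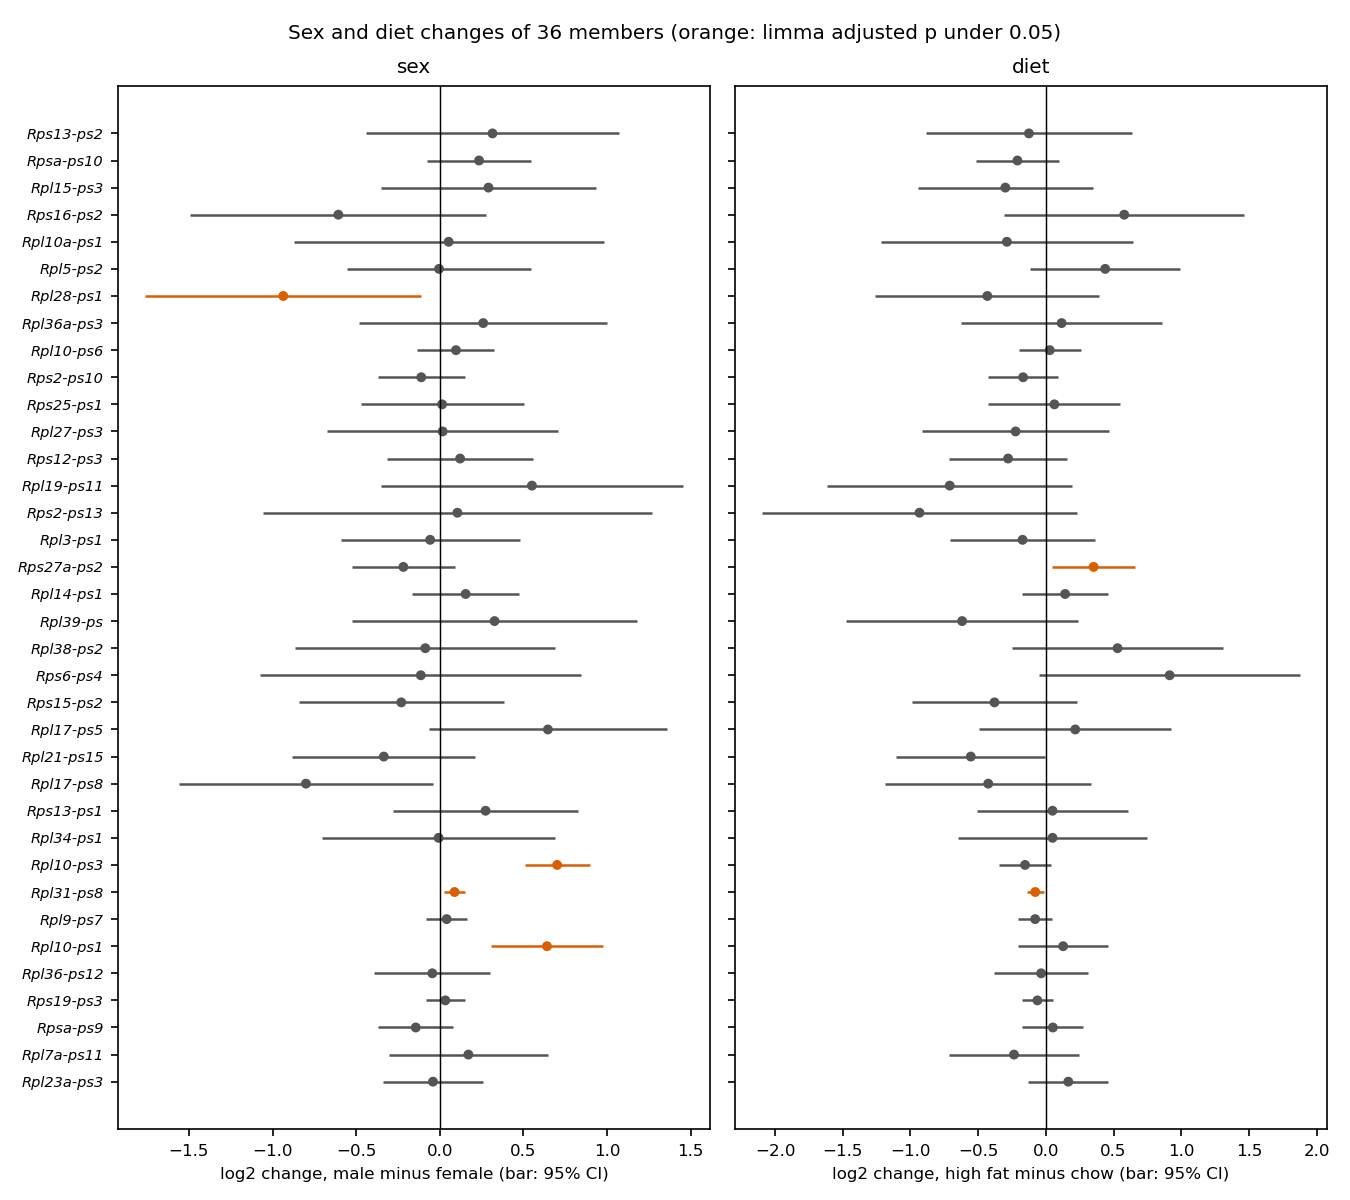
Log2 change of each of the 36 pseudogenes with its 95% interval, males minus females on the left and high fat diet minus chow on the right, in the row order of the plot of values by mouse. Intervals of most members with 2 modes span 0 and are wide, and the 4 sex calls and 2 diet calls are in orange.

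No member passed for the generation label, where limma called 0.938% of all genes and 1 member had an unadjusted p under 0.05. None passed for white coat against the mean of agouti and black (0.0137% of all genes called, 3 members at an unadjusted p under 0.05) or for black against agouti (0.089% of all genes called, 2 members at an unadjusted p under 0.05), in the 186 mice of these coats. Of the 14602 genes, 2100 had an unadjusted limma p under 0.05 for the generation label, 843 for white coat and 1556 for black coat. With limma on rank-based scores, 0 members were called in these 3 contrasts as well. The widest coat change was that of Rps15-ps2, high in 10 of 25 white, 5 of 30 black and 22 of 131 agouti mice, at 1.33 ± 0.49 in white mice (limma adjusted p = 0.665).

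For each member, Spearman's rho was computed on the residuals of the fit with every other tested gene over 192 mice, which share their libraries. The gene with the largest absolute rho was the coding gene of the same name for 14 of the 28 members with 2 modes, and rho was negative in all 14. It ran from -0.42 for Rpl34-ps1 to -0.88 for Rpl15-ps3, with Rpl10a-ps1 and Rps16-ps2 at -0.86 and -0.85, and Rpl19-ps11, Rps25-ps1 and Rpl28-ps1 at -0.82, -0.81 and -0.79. For Rpl36a-ps3 the gene was Rpl36al (-0.45), a coding paralogue from which it differed by 1 edit in 321 bases, against 40 from Rpl36a. For 2 members the gene lay on the same chromosome within 5 Mb, among them Rpl17-ps5 with Wdr86 (0.35). The most alike gene lay that near for 18.6% of all tested genes with a position. The rest had their largest rho with genes elsewhere, among them Ilvbl for Rps15-ps2 (0.49), Cyp2d11 for Rpl3-ps1 (-0.48), Rpl10-ps1 for Rpl10-ps3 (0.69) and Gm13370 for Rpl21-ps15 (-0.39). For Rpsa-ps10 it was Adat1 (0.32), for Rpl14-ps1 Cbarp (-0.31), for Rps13-ps1 Rpl22l1 (0.32), for Rps27a-ps2 Gm10020 (-0.27), for Rps2-ps10 Atp5s (-0.37), for Rpl10-ps6 Gm11266 (0.32) and for Rpl17-ps8 Gsn (0.35). Each is the largest of many values. The largest absolute rho had a median of 0.545 over all tested genes and 0.52 over the 28 members. These last 7 were below that of a typical gene, and so were those with Rpl34, Rpl36al, Wdr86, Ilvbl, Cyp2d11 and Gm13370.

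In several pairs the mice high for the pseudogene were low for the coding gene with few or no exceptions. Rpl19 had values of 31.1 to 65.9 (median 41.8) in the 119 mice with low Rpl19-ps11 and of 0.220 to 3.26 (median 1.23) in the 73 with high Rpl19-ps11, with no overlap. Rpl39 had 11.6 to 26.8 in the 144 mice with low Rpl39-ps and 1.94 to 4.91 in the 48 with high Rpl39-ps, again with no overlap. Rps6 had a median of 56.2 in the 149 mice low for Rps6-ps4 and of 1.08 in the 43 high mice, 3 of which were also high for Rps6. Rpl27 was low in 73 of the 74 mice high for Rpl27-ps3, and also in 24 of the mice low for it. By the boundary of each gene's own modes, member and coding gene were on opposite sides in 192 of 192 mice for Rpl19-ps11 and for Rpl39-ps. They were on opposite sides in 189 mice for Rps6-ps4 and in 184 for Rpl38-ps2. Of the 47 mice high for Rpl38-ps2, 8 were also high for Rpl38. For Rpl34-ps1 the count was 176, but 166 of these mice were low for it and high for Rpl34. Of its 26 high mice, 16 were also high for Rpl34, so this pair did not follow the pattern.

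In other pairs some mice were high for both. For Rpl15-ps3, 76 mice were high for the pseudogene and low for Rpl15, 42 the reverse, 74 high for both and 0 low for both. Rps25-ps1 had 54, 94, 44 and 0 mice in these sets, and Rpl10a-ps1 had 92, 55, 45 and 0. For Rps13-ps2 there were 140, 24, 24 and 4. Rps13-ps1 went the other way, and 24 of its 28 high mice were also high for Rps13, the gene that both copies are named after. Rps16-ps2 (27, 51, 114 and 0) and Rpl28-ps1 (35, 68, 89 and 0) had more mice high for both than in any other set. Mice low for both were found beside Rps13-ps1 (140 mice), Rpl27-ps3 (24), Rpl21-ps15 (10), Rps2-ps10 (6) and Rps13-ps2 (4), and in none of the other 11 pairs in which both genes had 2 modes.

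**Figure D4:**
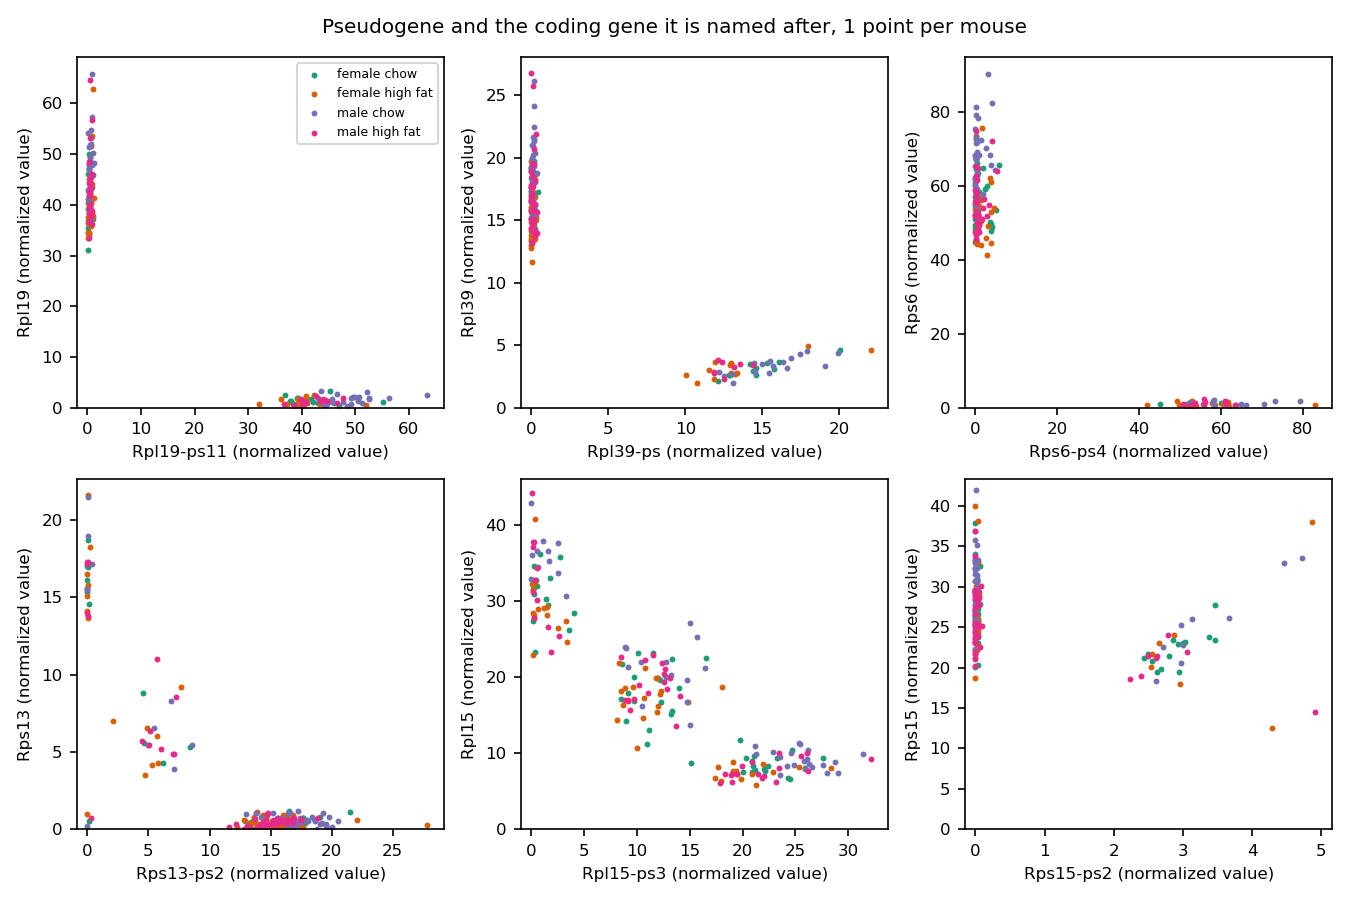
Value of a pseudogene (horizontal axis) against that of the coding gene of its name (vertical axis) for 6 pairs, 1 point per mouse and coloured by sex and diet. For Rpl19, Rpl39 and Rps6 the points lie along the 2 axes, for Rps13 and Rpl15 a middle set is high for both, and Rps15 stays at 12.5 or above in every mouse.

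Other coding genes differed less between the mice low and high for their copy. Rps15 had a median of 27.2 in the 154 mice low for Rps15-ps2 and 21.8 in the 38 high mice, with overlapping ranges of 18.7 to 41.9 and 12.5 to 38.1 and a rho of -0.32. Rpl3 (60.2 and 59.4), Rpl14 (24.7 and 24.9) and Rps27a (30.1 and 28.9) had nearly equal medians in the mice low and high for Rpl3-ps1, Rpl14-ps1 and Rps27a-ps2, whose own high medians were under 1. For the 8 members without 2 modes the relation with the coding gene's residuals was tested over 192 mice with 100000 permutations, and 6 of 8 Pearson correlations and 4 of 8 Spearman correlations passed after adjustment over the 8. Rpl31-ps8 had r = -0.476 (permutation p = 1e-05, adjusted p = 2e-05), -0.417 without the 2 mice farthest from the median, and rho = -0.231 (permutation p = 0.00155, adjusted p = 0.0062). Rpl9-ps7 had a positive r of 0.401 (permutation p = 1e-05, adjusted p = 2e-05), 0.403 without those 2 mice, and rho = 0.393 (permutation p = 1e-05, adjusted p = 8e-05). Rpl36-ps12 had r = -0.66 (permutation p = 1e-05, adjusted p = 2e-05) and rho = 0.0589 (permutation p = 0.415, adjusted p = 0.475), with r at -0.523 without the 2 mice farthest from the median. Rpl7a-ps11 had r = -0.615 (permutation p = 1e-05, adjusted p = 2e-05) and rho = -0.127 (permutation p = 0.0793, adjusted p = 0.127). In both members 6 mice stand apart and the pooled r rests on them, so these 2 of the 6 Pearson calls are given as a description.

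The sum of coding gene and copies had a smaller spread than the coding gene in 44 of 48 families, and the drop in the median was larger in families with a 2-mode member. To each of the 48 coding genes were added its named members and the other pseudogene rows that share a 100-base word with it, a sum chosen after these values were seen. In the 24 families that hold a member with 2 modes, the SD of the coding gene's log2 value over 192 mice had a median of 0.89, and that of the sum 0.22. It was smaller for the sum in 22 of these 24, and the largest SD was 0.29 for a sum and 2.53 for a coding gene. In the 24 families without such a member the medians were 0.27 and 0.23, it was smaller for the sum in 22 as well, and 34 coding ribosomal protein genes after which no member is named had a median of 0.26 by themselves.

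Single families show the size of the change. Rpl19 ran from 0.220 to 65.9 and its sum from 31.2 to 66.7, with SDs of 2.53 and 0.19. Rps6 ran from 0.301 to 90.3 and its sum from 42.8 to 93.5 (2.37 and 0.21), Rps25 from 0.0898 to 34.5 and its sum from 17.8 to 38.4 (2.38 and 0.21), Rps13 from 0 to 21.6 and its sum from 11.8 to 28.3 (2.19 and 0.19), and Rps16 from 0 to 45.3 and its sum from 18.4 to 45.98 (2.06 and 0.24). Rps2 ran from 2.24 to 183.2 and its sum from 78.2 to 184.6 (1.29 and 0.23). Rpl31 itself had a median of 1.00 while Rpl31-ps8 had 23.8, and their family sum lay between 18.4 and 39.9. For Rpl27 the named members left the SD at 1.07, and the other copies brought it to 0.21, from 1.28 for Rpl27 alone. The sum was not smaller for Rpl10 (0.18 alone and 0.18 summed) and Rpl36a (0.23 and 0.25), while Rpl36al with Rpl36a-ps3 went from 0.30 to 0.27.

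**Figure D5:**
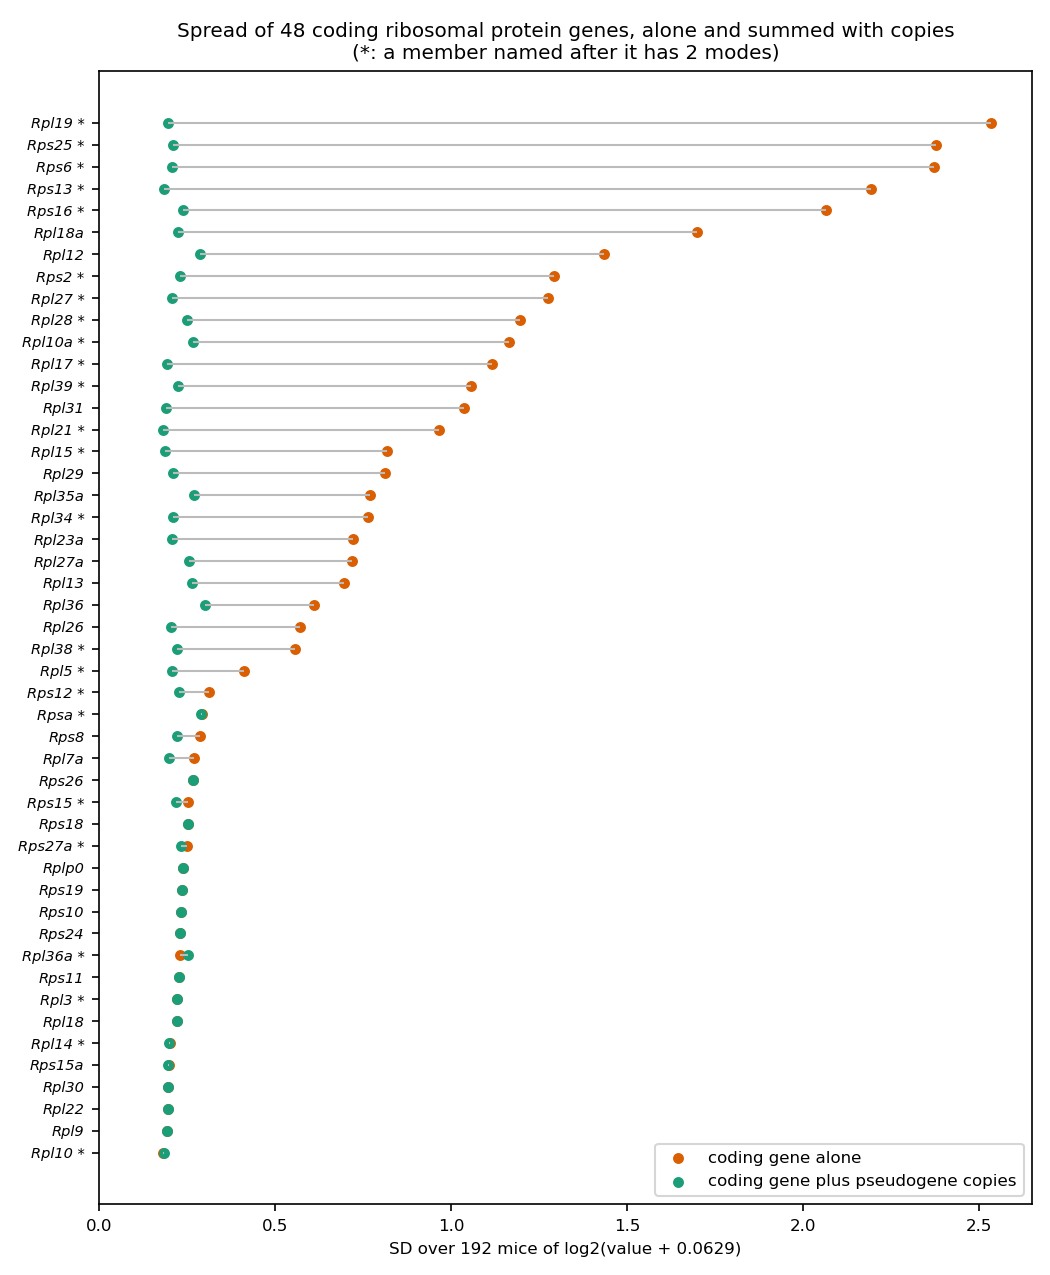
SD over 192 mice of the log2 value (horizontal axis) of 48 coding ribosomal protein genes alone (orange) and summed with their pseudogene copies (green), 1 gene per row. Single genes reach 2.53, and each sum lies between 0.18 and 0.30.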

How the data were processed

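The table deposited by the authors holds 1 signal value per gene and mouse, scaled to an upper quartile per the table's title, from 100-base single-end reads per the series' design text. CASAVA 1.8.0 and the build GRCm38 are named in the submitters' processing notes. Aligner, counting tool and the treatment of reads that fit several places are not given in the sources used here. GENCODE M21 gave symbols for 21022 IDs and none for 432, and its transcripts gave all sequences. Whole reads were not recovered (76.0% to 83.0% of values per mouse within 0.1 of a whole read), so no count test was run, and intervals rest on the number of mice. With limma 3.58.1 (R 4.3.3), a model of 4 groups, generation label and mean-variance trend was fitted to log2(value + 0.0629), with Benjamini-Hochberg adjustment over 14602 genes, and a second fit added coat colour. Modes were fitted with mclust 6.1.1, alignments made with edlib, and Fisher's exact and permutation tests run with scipy 1.17.1. The fits were tested on simulated data. Named were all members with 2 modes, all called in a contrast, the 10 with the highest mean, the 5 with the largest residual SD, the gene most alike each 2-mode member (1 such gene is not reported here), and the coding genes of these names. Rpl27a-ps1, copies with identical values, members just outside the mode rule, Rpl36al and the sums were chosen after their values were seen. The members and lists were chosen with earlier results of these data known. Alternatives were other pseudocounts, filters, scalings, ranks, thresholds and generations.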

Additional observations from a re-analysis of the deposited data

Results flagged for a closer look

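The diet change of Rpl31-ps8 differed between males and females by -0.20 on the log2 scale (limma adjusted p = 0.0332; limma adjusted p over its alternatives 0.0286 to 0.677), which singled it out as an effect that differs between groups. It was 0.023 in females and -0.18 in males. Such a difference was called in 1 of 36 members, against 8.38% of all tested genes. The median difference over 82 coding ribosomal protein genes was of like size, at -0.177. After median-of-ratios rescaling the call of Rpl31-ps8 was lost (-0.14, limma adjusted p = 0.191).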

How the results depend on the processing

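The share of all genes called is given above for the main fit only. The counts of members under other settings therefore cannot be judged against that of other genes. The members called for sex numbered 4 of 36, 8 of 162 without the filter (all 162 members then tested) and 2 in G11L2 mice alone. Those called for diet numbered 2, with 8 without the filter, 4 with rank-based scores, 1 after median-of-ratios rescaling and 0 in G11L2 mice alone. The 1 interaction call became 0 after median-of-ratios rescaling and in G11L2 mice alone. Counts for generation label and coats were 0 under every setting run. The members with 2 modes numbered 20 when 4 SDs were asked for and 26 to 28 under the other settings, and 18 of the 28 kept 2 modes under all of them. At 4 SDs Rpl3-ps1, Rpl10-ps3, Rpl10-ps6, Rpl27-ps3, Rps2-ps10, Rps6-ps4, Rps25-ps1 and Rpsa-ps10 lost them, and Rpl10-ps3 lost them under 3 other settings too. The median share of mice at 0 was 94.0% when values below 3 reads counted as 0. The share of whole-read values was 16.7% at a tolerance of 0.05, and the median share of words in other genes was 62.6% with 50-base words. The median SD of coding gene plus copies was 0.19 after rescaling, against 0.89 for the coding gene. Mouse numbers shared by an F and an M mouse were not shown to pair them. Over 92 pairs the median correlation of residuals was 0.0031 (highest 0.316), and 9 exceeded 0.1. The median was -0.0038 for F and M mice of unlike number. Among mice of the other sex, 7 of 184 mice were most like their own number. No chance level was computed for this count, and whether some pairs were related was not tested. With the mouse number as a replicate block, members called were 4 for sex, 2 for diet, 1 for the interaction and 0 for the other contrasts. Depth limits the 106 members that never passed 10 reads, for which modes were not assessed.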
